A study of Homo sapiens with 6 samples.

Results

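ATF4 is the transcription factor through which the integrated stress response acts on gene expression, and 8 of its effector genes outside the tRNA synthetases were followed here: DDIT4, TRIB3, SESN2, DDIT3, ASNS, CBS, ATF5 and STC2. All 8 were measured, each by 1 probe set, among 14779 genes in all. They had been chosen from ATF4 effectors with the shGLDC99 and shGFP values of these same arrays in view. Their differences between the groups are therefore a description, with no test, and nothing is inferred from their direction.

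The cells were LA1-55n, a human neuroblastoma line grown in RPMI 1640 with fetal bovine serum. The 3 shGLDC99 arrays came from cells with a doxycycline-inducible hairpin against GLDC, the glycine decarboxylase of mitochondria, and the 3 shGFP arrays from cells with an inducible hairpin against GFP, a sequence foreign to human cells. Both populations received doxycycline at 0.5 µg/ml for 7 days, so the drug itself was shared by the groups. The comparison asks how the effectors stood once the GLDC hairpin took the place of the control hairpin. It rests on 1 hairpin against GLDC in 1 cell line, and the labels do not say whether either population was a clone. The labels do not say how the 3 samples of a group were kept apart, so p-values describe the variation among these 6 arrays, which may be technical.

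In the integrated stress response, kinases that sense amino acid shortage, misfolded protein, double-stranded RNA or a lack of heme phosphorylate the translation factor eIF2 alpha. General protein synthesis slows, while the ATF4 messenger is translated more, so ATF4 activity can change with little change in its messenger. ATF4 then turns on genes that supply amino acids (ASNS and CBS stand for these here) and genes that hold back growth and mTORC1 signalling (DDIT4, TRIB3, SESN2 and DDIT3). ATF5, a transcription factor close to ATF4, and STC2, a secreted glycoprotein, belong to neither side.

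Values are deposited log2 intensities, and differences are shGLDC99 minus shGFP on that scale. A probe set reads its own gene, so levels are compared between groups and not between genes. GLDC itself was lower in every shGLDC99 array (5.98, 5.65 and 5.93) than in any shGFP array (7.85, 7.90 and 7.81), with 24.9% of the control level left (difference -2.00 ± 0.10, SE). Over 31135 probe sets, r between arrays was 0.993 to 0.994 within a group. Markers of neuroblastoma fitted the label in part: 12 of 15 measured reached the level of the median gene, 5.09, while HAND1, DBH and STMN2 lay below it. Their mean level ranged from 6.90 to 7.02 in shGLDC99 arrays and from 6.90 to 7.03 in shGFP arrays. Of these 15, 3 rose (NCAM1, CHGB and GAP43) and 3 fell (ISL1, GATA2 and GATA3), against 3.72% and 4.80% of all genes. Their differences ran from -1.09 to 0.43, so the near-level means do not show that the markers were unchanged. Of 24 measured markers of leukocytes, epithelium, endothelium, fibroblasts and glia, CD68 and THY1 exceeded the median gene. The mean of the 3 fibroblast markers was 3.79 to 3.89 in shGLDC99 arrays and 3.57 to 3.64 in shGFP arrays, with LUM past the threshold. The mean of the 7 epithelial markers was 3.52 to 3.60 in shGLDC99 arrays and 3.40 to 3.49 in shGFP arrays, with none past it. The part of such cells in the members' differences was not tested. In RNA from whole cultures, fewer cells of a type and less RNA per cell cannot be told apart.

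Upstream sequences of 3 members are shown because ASNS is the textbook gene for the ATF4 binding element, DDIT4 had the highest difference of the 8, and DDIT3 is itself a transcription factor of the response. Each line holds 250 bases before an annotated transcript start in RefSeq's GRCh38.p14 table, written on the gene's own strand. ASNS lies at chr7:97872409-97872658 on the minus strand, DDIT4 at chr10:72273674-72273923 on the plus strand and DDIT3 at chr12:57520515-57520764 on the minus strand. Capitals mark the core of the element bound by C/EBP and ATF partners, TGATGNAA, in ASNS, and CCAAT boxes, read on either strand, in DDIT4 and DDIT3.
ASNS: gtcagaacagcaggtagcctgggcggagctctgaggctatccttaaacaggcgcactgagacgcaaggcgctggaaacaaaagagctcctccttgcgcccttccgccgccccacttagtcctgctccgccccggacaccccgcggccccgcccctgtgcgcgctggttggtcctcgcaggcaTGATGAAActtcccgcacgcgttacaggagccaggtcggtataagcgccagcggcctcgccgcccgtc
DDIT4: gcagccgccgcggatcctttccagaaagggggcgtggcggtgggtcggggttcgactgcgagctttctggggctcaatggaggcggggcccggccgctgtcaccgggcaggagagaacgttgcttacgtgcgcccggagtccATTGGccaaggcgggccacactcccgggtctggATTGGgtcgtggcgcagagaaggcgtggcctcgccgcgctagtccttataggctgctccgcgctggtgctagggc
DDIT3: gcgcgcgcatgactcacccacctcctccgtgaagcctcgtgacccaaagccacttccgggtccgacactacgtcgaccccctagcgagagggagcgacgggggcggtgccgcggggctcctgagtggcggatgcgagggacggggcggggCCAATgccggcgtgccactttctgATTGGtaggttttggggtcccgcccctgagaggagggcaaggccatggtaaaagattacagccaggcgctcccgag

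The letters TGATGNAA, searched on both strands, occurred in 1 of 16 upstream windows of the 8 members, that of ASNS, where the match starts 68 bases before the transcript start. They occurred in 3.14% of all 35116 windows of the same length. CCAAT, which shares no overlap with that match, was found in windows of 5 of the 8 members (DDIT4, SESN2, DDIT3, CBS and STC2) and in 37.0% of 27305 genes. DDIT4, SESN2 and DDIT3 each held a pair of CCAAT boxes in their first window, as did CBS in another of its windows. TRIB3 and ATF5 held neither motif in any of their 3 windows each. These are matches of letters in a short window, and the arrays do not measure binding.

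Of the 4 growth-restraining members, all were higher in every shGLDC99 array than in any shGFP array, as were 14.5% of all genes. Since the members were chosen with this contrast in view, nothing is read from that count. DDIT4, known as REDD1, restrains mTORC1 through the TSC complex. It read 7.01, 6.88 and 7.05 in shGLDC99 cells, against 6.25, 6.01 and 6.23 in shGFP cells. The difference was 0.82 ± 0.0919 (SE), or 1.76-fold, and 0.420% of all genes had a larger positive difference.

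TRIB3 is a pseudokinase that binds AKT and also ATF4. It read 6.39, 6.40 and 6.28 in shGLDC99 cells, against 5.93, 5.68 and 5.76 in shGFP cells. The lowest shGLDC99 array lay 0.35 above the highest shGFP array, and the difference was 0.57 ± 0.0863 (SE), or 1.48-fold.

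SESN2 is a leucine sensor that releases GATOR2 when leucine is plentiful and restrains mTORC1 when it is scarce. It read 7.4, 7.36 and 7.4 in shGLDC99 cells, against 6.92, 7.10 and 7.19 in shGFP cells. The shGLDC99 arrays lay close together (SD 0.0244) and the shGFP arrays were more spread (SD 0.137). The difference was 0.31 ± 0.0838 (SE), or 1.24-fold, and it was 0.24 without shGFP array a, the lowest of the 6.

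DDIT3, known as CHOP, is a C/EBP-family factor tied to growth arrest and cell death under lasting stress. It read 4.88, 4.36 and 4.44 in shGLDC99 cells, against 4.20, 3.70 and 3.75 in shGFP cells. Array a stood highest in each group, and the groups were parted by 0.15, less than the SD within either group (0.280 in shGLDC99 and 0.277 in shGFP). The difference was 0.67 ± 0.184 (SE). Both group means, 4.56 and 3.89, were lower than that of the median gene, where signal above background is not shown, so its size is uncertain. The gene's span overlaps the end of MARS1, which differed by 0.18, and the span of MIR616. Whether these transcripts reach the probe set was not tested.

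The 2 amino acid synthesis members had differences of opposite sign. ASNS, which makes asparagine from aspartate and glutamine, read 8.90, 8.94 and 8.89 in shGLDC99 cells, against 8.53, 8.55 and 8.5 in shGFP cells. The arrays of each group lay close together (SD 0.0288 in shGLDC99 and 0.0276 in shGFP), and the difference was 0.39 ± 0.0592 (SE), or 1.31-fold. The span of ASNS overlaps the long noncoding RNA CZ1P-ASNS and the pseudogenes SNRPCP9 and RPS3AP29, none of them measured under these names. Whether their transcripts reach the probe set was not tested.

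CBS joins serine to homocysteine in the first step of transsulfuration, the route to cysteine. It read 6.81, 6.81 and 6.64 in shGLDC99 cells, against 6.85, 6.93 and 6.87 in shGFP cells. It was the one member with a negative difference, -0.12 ± 0.0735 (SE). The groups were parted by 0.04, less than the SD of shGLDC99 arrays (0.0976). A near-identical annotated copy, CBSL, had no probe set named here, so the signal of CBS and of that copy may not be separable.

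ATF5 read 5.41, 5.37 and 5.35 in shGLDC99 cells, against 4.96, 4.46 and 5.0 in shGFP cells. The shGFP arrays were widely spread because array b was low (SD 0.304, against 0.0341 in shGLDC99), and without that array the difference of 0.57 ± 0.148 (SE) was 0.39. All 3 shGFP arrays lay below the median gene, where signal above background is not shown, so the size of the difference is uncertain. The span of ATF5 overlaps IL4I1, an amino acid oxidase gene, which fell by 0.36 (limma adjusted p = 0.0361). It also overlaps NUP62 and MIR4751, which were not measured under these names. Whether any of these transcripts reach the probe set was not tested.

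STC2, which limits calcium entry into cells, read 6.42, 6.32 and 6.35 in shGLDC99 cells, against 6.10, 6.31 and 6.26 in shGFP cells. The lowest shGLDC99 array and the highest shGFP array were level at 6.32 and 6.31. The difference of 0.14 ± 0.0777 (SE) was 0.08 without shGFP array a.

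**Figure D1:**
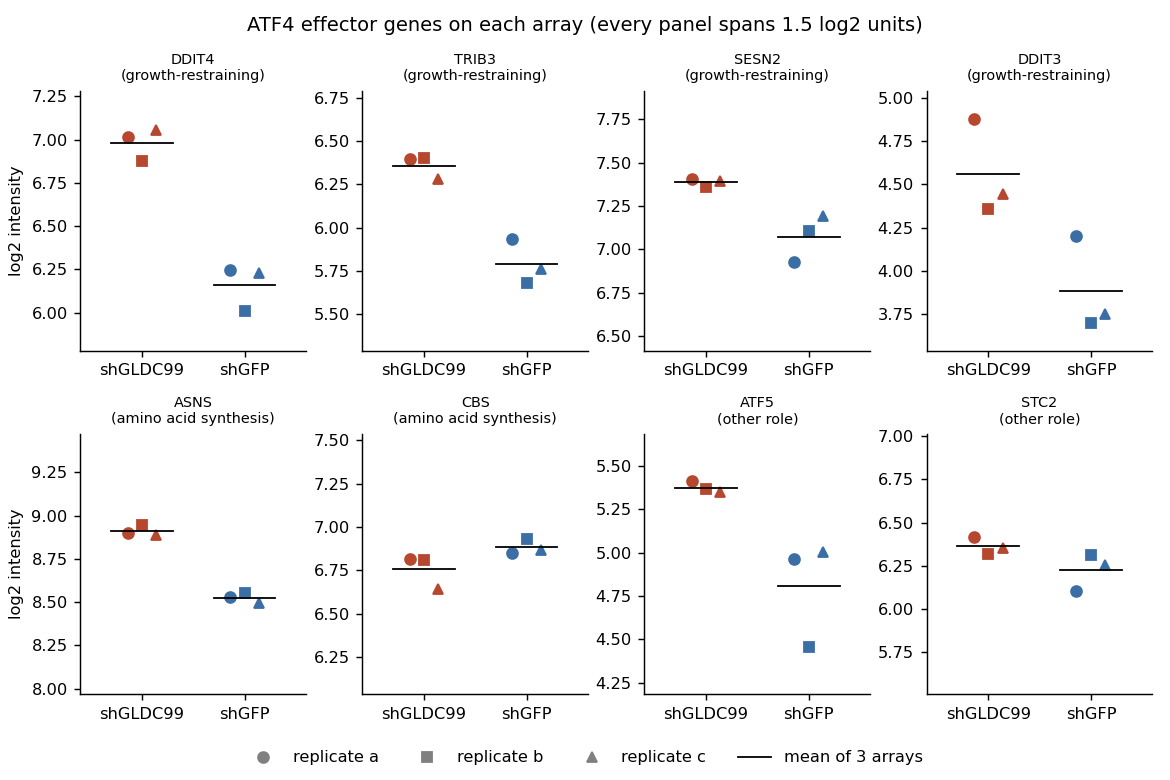
Each panel shows the log2 intensity of 1 member on the 3 shGLDC99 arrays (left) and the 3 shGFP arrays (right), with symbols for replicates a, b and c and a line at the mean of 3 arrays. DDIT4 has the widest gap between groups, 0.63, while STC2 and CBS nearly touch.

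In the fit across all genes, 3 of the 8 members (DDIT4, TRIB3 and ASNS) had an adjusted p under 0.05. That status held for 8.52% of all genes, 3.72% as higher and 4.80% as lower in shGLDC99 cells. For 7 members all shGLDC99 arrays lay above all shGFP arrays, as for 14.5% of all genes. For CBS they lay below, as for 16.3%. Since the choice of members used this contrast, nothing is read from these counts. DDIT4 stayed past the threshold in all 13 alternatives that kept it at 0.05, and CBS and STC2 in 0 of 13. Leaving out 1 array left 1 to 3 members past it, with 1 member, DDIT4, left without shGFP array c or without shGLDC99 array b. All these fits reuse the arrays with which the members were chosen, so they do not test the members.

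**Figure D2:**
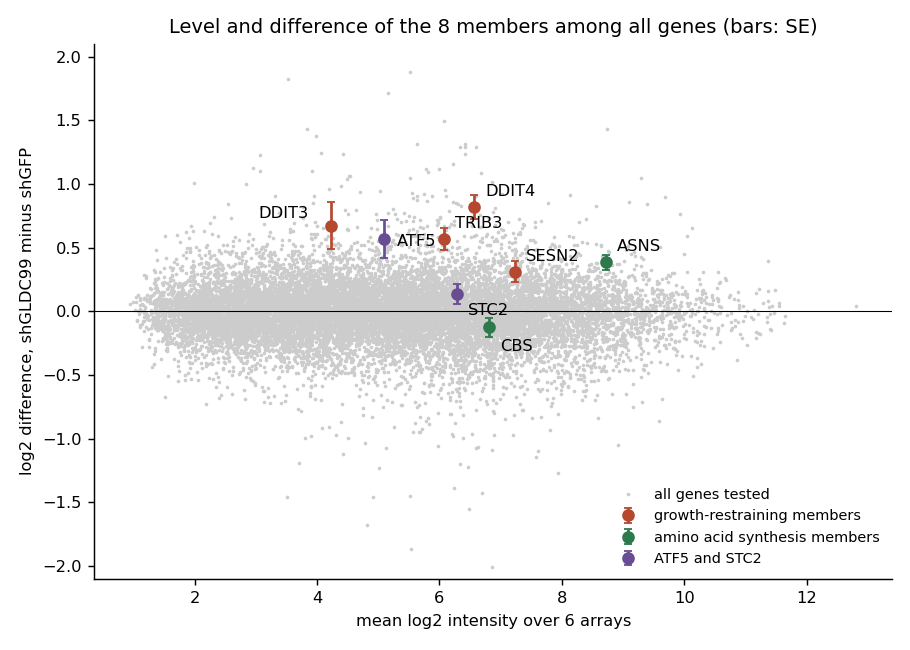
Each grey point is 1 of the 14779 genes, with its mean log2 intensity over 6 arrays on the horizontal axis and its log2 difference, shGLDC99 minus shGFP, on the vertical axis. The 8 members are coloured by role with SE bars, and CBS alone among them lies below 0, at -0.12.

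Set by role, the growth-restraining members had the higher mean difference, 0.59 over 4 genes with a range of 0.31 to 0.82. The amino acid synthesis pair averaged 0.13, with ASNS at 0.39 and CBS at -0.12, and ATF5 with STC2 averaged 0.35. The growth-restraining mean exceeded that of amino acid synthesis by 0.46, with a spread between arrays of 0.117 (pooled SD). That mean includes DDIT3 (0.67), whose size is uncertain at its low signal. Against ASNS alone, a reading chosen after the values were seen, the excess was 0.21. Leaving out any 1 array gave an excess over the pair of 0.39 to 0.52. Since the members were chosen with this contrast in view, the excess and its spread are a description and test nothing.

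With each gene centred on its own mean over the 6 arrays, the growth-restraining mean was 0.40, 0.22 and 0.27 in shGLDC99 arrays a, b and c, against -0.20, -0.40 and -0.29 in shGFP arrays a, b and c. The amino acid synthesis mean was 0.09, 0.11 and -0.00 in shGLDC99 arrays, against -0.08, -0.03 and -0.09 in shGFP arrays. The groups did not overlap in either role, but those of amino acid synthesis nearly met. Within the shGLDC99 group, array a was the highest for 5 of 8 members. Within the shGFP group, array b was the lowest for 4 of 8 (DDIT4, TRIB3, DDIT3 and ATF5) and the highest for 3 (ASNS, CBS and STC2).

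**Figure D3:**
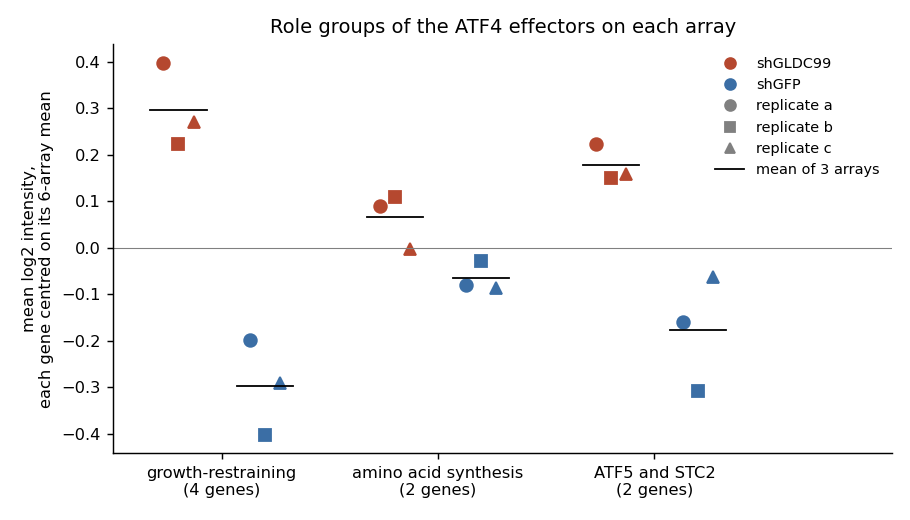
Points give the mean log2 intensity of each role group on 1 array, with every gene first centred on its own mean over 6 arrays, and lines give the mean of 3 arrays for shGLDC99 (left) and shGFP (right). The growth-restraining means run from 0.22 to 0.40 in shGLDC99 arrays and from -0.40 to -0.20 in shGFP arrays.

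The other genes of the pathway were taken from 14 lists written from general knowledge, but with earlier results of these data known. Of 312 listed genes besides the members, 187 were measured, of which 12 rose and 8 fell in shGLDC99 cells at an adjusted p under 0.05, against 3.72% and 4.80% of all genes. That is 20 of 187, near the 8.52% of all genes that passed in either direction. With 1 array fewer, 6 to 9 of the 187 passed the threshold. ASS1, HK2, SESN3, TP53INP1, UNC5B and WARS1 passed it in all 6 of these fits. Not measured under these names were CHAC1, PPP1R15A, CEBPB, CEBPG and all 20 listed amino acid transporters.

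The messenger of ATF4 itself was near level between the groups. It read 8.90, 8.86 and 8.84 in shGLDC99 cells, against 8.77, 8.81 and 8.82 in shGFP cells, a difference of 0.07 ± 0.0592 (SE; limma adjusted p = 0.562), with the groups parted by 0.02. Among 16 measured genes for ATF4 and its possible partners, 1 rose: FOSL2, an AP-1 subunit, by 0.48 (limma adjusted p = 0.0301). It passed in 1 of the 6 fits with an array left out. CREB1 had the next smallest p, with a difference of -0.17 (limma adjusted p = 0.155). ATF3, a stress-induced factor that ATF4 switches on, differed by 0.06. The list median was 0.00, against -0.01 over all genes.

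The kinases that start the response moved in opposite directions. EIF2AK2, known as PKR and activated by double-stranded RNA, rose by 0.36 ± 0.0688 (SE; limma adjusted p = 0.0274). It read 9.44, 9.41 and 9.56 in shGLDC99 cells, against 9.12, 9.15 and 9.08 in shGFP cells. EIF2AK3, known as PERK and activated in the endoplasmic reticulum, fell by 0.35 ± 0.0796 (SE; limma adjusted p = 0.0431). It read 7.58, 7.56 and 7.59 in shGLDC99 cells, against 8.07, 7.87 and 7.85 in shGFP cells. Neither passed the threshold with any 1 array left out. EIF2AK4, known as GCN2 and activated by uncharged tRNA, differed by 0.17, with adjusted p = 0.131 in limma. EIF2AK1, the heme-regulated kinase, differed by -0.17, with adjusted p = 0.136 in limma. Messenger levels do not report kinase activity.

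The relatives of the members differed from each other in sign. SESN3, a sestrin like SESN2, read 9.31, 9.31 and 9.41 in shGLDC99 cells, against 8.82, 8.82 and 8.84 in shGFP cells. It rose by 0.52 ± 0.0624 (SE; limma adjusted p = 0.00774). SESN1 differed by -0.29 (limma adjusted p = 0.110), with all shGLDC99 arrays below all shGFP arrays. TRIB1 and TRIB2 differed by -0.14 and 0.06, STC1 by -0.35 and DDIT4L by -0.15, none past the threshold. Over the 7 measured relatives, with ATF4 (0.07) counted as that of ATF5, 1 rose and the median difference was -0.14.

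Among 24 other measured effectors of ATF4, most of them in signalling, autophagy and cell death, 2 rose and 2 fell, against 3.72% and 4.80% of all genes. The list holds a cytosolic tRNA synthetase, and some of its genes stand in other lists too. VLDLR, a lipoprotein receptor, rose by 0.46 (limma adjusted p = 0.0200), and so did the autophagy receptor SQSTM1, also by 0.46 (limma adjusted p = 0.0263). UNC5B, a netrin receptor, fell by 0.63 ± 0.0742 (SE; limma adjusted p = 0.00742), with 7.96, 7.91 and 7.78 in shGLDC99 cells, against 8.48, 8.58 and 8.48 in shGFP cells. ATG5, which helps to build autophagosomes, fell by 0.37 (limma adjusted p = 0.0422). With an array left out, UNC5B passed in 6 of 6 fits, VLDLR in 2, SQSTM1 in 1 and ATG5 in 0. The median of this list was 0.06, whereas that of the 8 members, picked in part for their differences, was 0.48. The secreted markers of mitochondrial stress GDF15 and FGF21 differed by 0.17 and 0.02, and both lay below the median gene level.

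Of 20 other measured enzymes of amino acid synthesis, 1 rose. ASS1, which joins citrulline to aspartate on the way to arginine, read 9.65, 9.45 and 9.5 in shGLDC99 cells, against 8.61, 8.63 and 8.78 in shGFP cells. Its difference was 0.86 ± 0.0853 (SE; limma adjusted p = 0.00462), above those of all 8 members. OAT, which makes proline precursors from ornithine, differed by 0.23 (limma adjusted p = 0.0864). PHGDH and PSAT1, the first steps of serine synthesis, differed in opposite directions, by -0.24 (limma adjusted p = 0.0581) and by 0.17 (limma adjusted p = 0.120). The list median was 0.02.

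Around CBS, 16 other genes of the methionine cycle and transsulfuration were measured. CTH, the enzyme after CBS on the way to cysteine, differed by 0.04 (limma adjusted p = 0.762). MTR, which turns homocysteine back into methionine, fell by 0.28 (limma adjusted p = 0.0358). SQOR, which oxidises sulfide in mitochondria, rose by 0.36 (limma adjusted p = 0.0479), at low levels of 3.58 in shGLDC99 cells and 3.22 in shGFP cells. Neither MTR nor SQOR passed the threshold with any 1 array left out.

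For mTORC1, which DDIT4 and SESN2 restrain, and its inputs, many of them not downstream of these 2 members, 34 genes were measured and 1 rose. DEPTOR, an inhibitor within the mTOR complexes, read 6.50, 6.32 and 6.45 in shGLDC99 cells, against 6.01, 6.13 and 6.11 in shGFP cells. Its difference was 0.34 ± 0.0757 (SE; limma adjusted p = 0.0417), and it did not pass the threshold with any 1 array left out. KICS2, a subunit of the complex that holds GATOR1 on lysosomes, differed by 0.15 (limma adjusted p = 0.210). MTOR differed by 0.03 and TSC2, the partner through which DDIT4 acts, by -0.02. EIF4EBP1, a target of ATF4 and of mTORC1, differed by 0.11 (limma adjusted p = 0.407). The list median was 0.04.

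**Figure D4:**
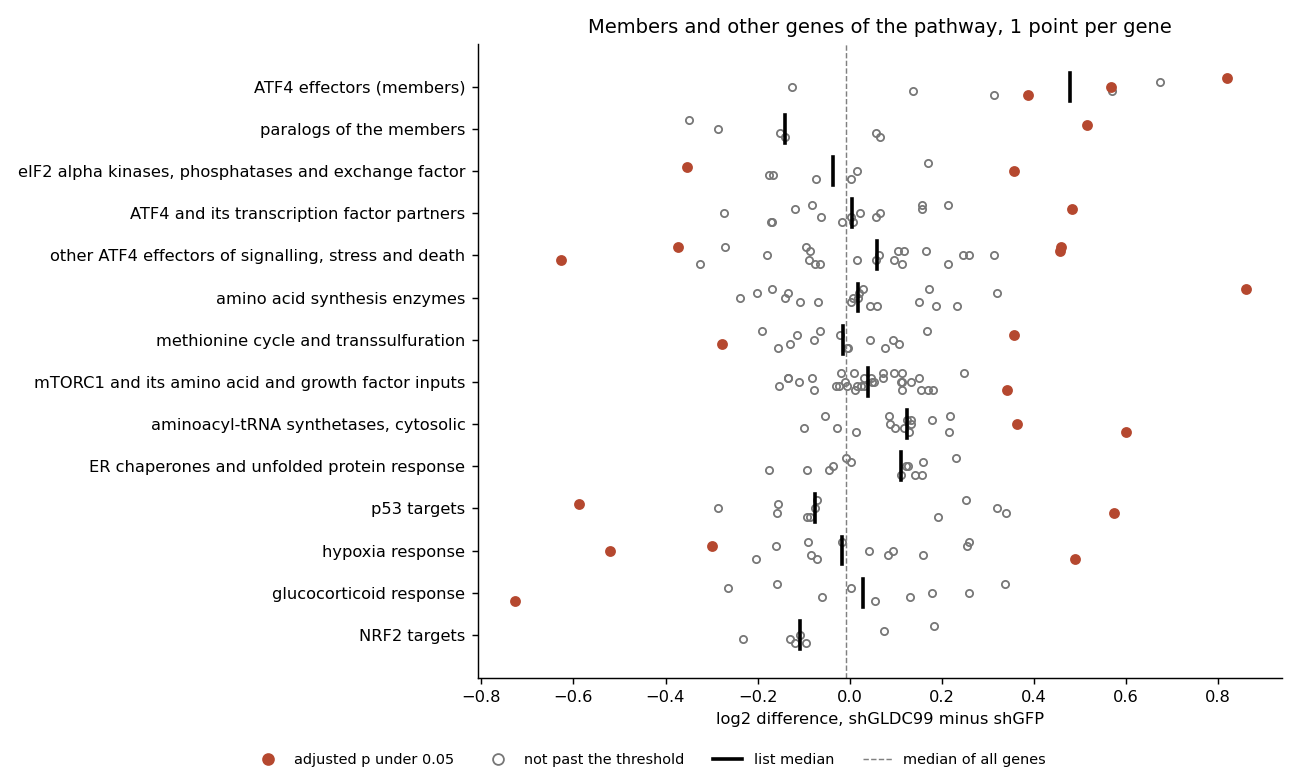
Each point is the log2 difference, shGLDC99 minus shGFP, of 1 gene, with the 8 members in the top row and the other pathway genes below by list. Filled points have an adjusted p under 0.05, black ticks are list medians (0.48 for the members) and the dashed line is the median of all genes at -0.01.

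The cytosolic tRNA synthetases, left out of the members and listed whether or not ATF4 acts on each, had a median of 0.12 over 17 genes. In 12 of the 17 all shGLDC99 arrays lay above all shGFP arrays, against 14.5% of all genes. 2 of the 17 rose, against 3.72% of all genes: WARS1 by 0.60 and SARS1 by 0.36, the call of SARS1 being lost with any 1 array left out. Endoplasmic reticulum stress, which also raises DDIT3 and TRIB3, was followed through 13 other genes. Of these, limma called 0, with 2 at an unadjusted p under 0.05, against 3599 of all 14779 genes. The median of the 13 was 0.11, near that of the synthetases. In 5 of the 13 all shGLDC99 arrays lay above all shGFP arrays, and in 2 below, against 14.5% and 16.3% of all genes. DERL2, a channel component of protein disposal, had the smallest p (difference 0.23, adjusted p = 0.0641 in limma), followed by DERL1 (0.16).

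Some members also answer to other regulators: SESN2 to p53 and NRF2, and DDIT4 to low oxygen and glucocorticoids. Of 13 measured p53 targets, TP53INP1 rose by 0.57 (limma adjusted p = 0.00581) and SPATA18 fell by 0.59 (limma adjusted p = 0.0209), at levels of 3.17 and 3.76. Of 15 measured hypoxia genes, HK2 fell by 0.52 (limma adjusted p = 0.00885), BNIP3L fell by 0.30 (limma adjusted p = 0.0280), and EGLN3 rose by 0.49 (limma adjusted p = 0.0397) at levels of 4.43 and 3.94. Of 10 measured glucocorticoid targets, MT2A, a metallothionein, fell by 0.73 (limma adjusted p = 0.0174) at levels of 4.04 and 4.77, and FKBP5 differed by -0.26 (limma adjusted p = 0.0589). Of 7 measured NRF2 targets, limma called 0, with 2 at an unadjusted p under 0.05, TXNRD1 (-0.23) and TALDO1 (0.18). With an array left out, TP53INP1 and HK2 passed in 6 of 6 fits, SPATA18 and MT2A in 2, EGLN3 in 1 and BNIP3L in 0. At an unadjusted p under 0.05, in either direction, were 7 of 13 p53 targets, 6 of 15 hypoxia genes and 4 of 10 glucocorticoid targets. Of all 14779 genes, 3599 were. The medians of these lists lay between -0.11 and 0.03. The part of these regulators in the members' differences was not tested.

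By values alone, the genes most like the mean of the 8 members over the 6 arrays were TIGD1, KIF3A, RTN1, CHD5, TMEM167B and FRMD4B. Their Pearson r ran from 0.994 to 0.997 among 7384 genes at or above the median level, each of 6 arrays being 1 point in 2 groups. KIF3A, a subunit of a transport kinesin, read 8.47, 8.35 and 8.41 in shGLDC99 cells, against 7.89, 7.72 and 7.85 in shGFP cells. CHD5, a chromatin remodeller of neurons, read 5.70, 5.54 and 5.56 in shGLDC99 cells, against 5.04, 4.85 and 5.09 in shGFP cells. Among the members, which are themselves part of that mean, r was 0.985 for DDIT4, 0.979 for TRIB3, 0.950 for ASNS, 0.634 for STC2 and -0.689 for CBS.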

How the data were processed

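Total RNA was read on Affymetrix Human Gene 2.0 ST arrays, 3 per group. The deposited values are log2 intensities per probe set; the log base is inferred, since the highest value, 13.28, is too large for a natural log of scanner intensity. They were made in Partek, per the submitters' processing notes, with no version; how background and normalization were handled is not given in the sources used here. The array medians ran from 4.28 to 4.33 and nothing was normalized again. Of 31135 probe sets, 15098 carried 1 gene symbol in the platform annotation, 0 several, and 16037 none. All 15098 matched the reference table by Entrez ID. Genes with several probe sets (256) kept the one with the highest mean over the 6 arrays, which left 14779 genes. No filter was applied, and the number of arrays limits the precision.

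Differences were fitted with limma 3.58.1 in R 4.3.3 (lmFit, eBayes, no covariates), with Benjamini-Hochberg adjustment over all genes and a threshold of 0.05, after a check on simulated arrays. "Rose" and "fell" mean past that threshold. The members, the lists and the tests were chosen with earlier results of these data known. Named besides the members were GLDC, a fixed set of pathway genes (the eIF2 alpha kinases among them), up to 4 genes per list with the smallest adjusted p, the 6 genes most alike, and annotated neighbours of the members; GDF15, FGF21, EIF4EBP1 and the marker genes were added after their values were seen. Alternatives were quantile normalization again, centring on array medians, leaving out the dimmest 40% of genes, averaging probe sets, all probe sets, the replicate letter as a block, an intensity trend, a threshold of 0.01, and leaving out each array. The build of the array design is not stated; coordinates and sequences are RefSeq's GRCh38.p14 (16 windows matched the 8 members by symbol). Tables and plots used pandas 2.3.3, numpy 2.4.6 and matplotlib 3.10.9 in Python 3.11.15.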

Additional observations from a re-analysis of the deposited data

How the results depend on the processing

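Every member kept its sign in all alternatives in which it was measured; DDIT3 is among the dimmest 40% of genes and had no value without them. Without those genes 2221 genes changed in place of 1259, with 5 members and 34 other pathway genes past the threshold in place of 3 and 20. Letting the prior variance follow intensity gave counts of 2438, 6 and 42, and at an adjusted p under 0.01 the counts were 275, 1 and 6. Same-letter arrays of the groups did not deviate together across genes (r from -0.0119 to 0.0182). That shows no large effect shared by letter, but not how the samples were handled, and the labels do not say whether the letters pair them. With the replicate block 229 genes, 3 other pathway genes and 2 members (DDIT4 and DDIT3) passed. Leaving out each array in turn gave 461 to 546 genes, 1 to 3 members and 6 to 9 other pathway genes, with fewer arrays in each fit. The excess of growth-restraining over amino acid synthesis members, 0.46, was 0.21 with ASNS alone, an alternative chosen after seeing the data. For the other alternatives the causes were not tested. Quantile normalization again, median centring and averaged probe sets moved none of these 3 counts by more than 1.5 times. With all 31135 probe sets fitted, 1422 probe sets changed, which is a count of another unit than genes, and 3 members passed. Other pathway genes were not counted there. Low signal limits DDIT3 in both groups and ATF5 in shGFP cells, where levels are not shown to exceed background.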
